A study of Sus scrofa with 5 samples.

Results

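The genes described here encode the proteasome, taken as the probe sets annotated with exactly 1 symbol that starts with PSMA, PSMB, PSMC, PSMD, PSME or PSMG. The interferon-induced PSMB8, PSMB9, PSMB10, PSME1 and PSME2 were left out of the set and are given separately. Where several probe sets stood for a gene, the one with the highest mean over the 5 arrays was used, which gave 35 genes from 40 probe sets, out of 6765 genes with a probe set of their own. The set held 14 genes of the core particle, 15 of the regulatory particle, 4 assembly chaperones and 2 activators. PSMC4, PSMD7, PSMD9, PSMG2 and PSMG4 were not analysed here.

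The animals were female pigs of a backcross of Iberian × Landrace to Landrace, fed a commercial cereal diet ad libitum and sampled for backfat at slaughter. In the study, which compared 3 animals per group, the H group (BC4, BC5 and BC6) had more polyunsaturated fatty acids in muscle. The L group had more saturated and monounsaturated ones, and a principal component of carcass and muscle fatty acid traits ordered the animals. The study's L group also held BC1, which is not among the arrays, so that the L group is BC2 and BC3 here. Each array held the RNA of 1 animal, so that the groups had 3 and 2 animals. The comparison asks whether backfat expression differs between animals of divergent muscle fatty acid composition.

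The proteasome degrades proteins that carry a ubiquitin chain. Its core particle is a barrel of stacked rings, with alpha subunits at the ends that gate the entry and beta subunits in the middle, of which PSMB5, PSMB6 and PSMB7 hold the proteolytic sites. The regulatory particle caps the barrel: its PSMC subunits are ATPases that unfold the substrate and push it into the core, and its PSMD subunits bind, scaffold and remove the ubiquitin chain. In fat tissue the proteasome turns over enzymes and receptors and supports the protein quality control of adipocytes.

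All 35 genes were above the floor of the values (2.17 on the log2 scale) on every array, and array medians were 4.21 to 4.29. The adipocyte marker FABP4, a fatty acid carrier, was at 15.4, 15.5 and 15.4 in BC4, BC5 and BC6 of the H group, and at 15.4 in both L animals. Since an extraction note names liver, hepatocyte markers were read as well, and 2 of 7 were at the floor on every array, with ALB, the leading plasma protein of liver, between 2.58 and 4.69. Bacterial control RNA was brighter on BC5 (H) and BC3 (L), with means of 5.21, 7.56 and 5.01 in BC4, BC5 and BC6 and of 5.00 and 7.80 in BC2 and BC3. The same arrays had the highest summed log2 level of 6 skeletal muscle markers, at 17.8, 36.0 and 15.1 in BC4, BC5 and BC6 and at 16.2 and 26.5 in BC2 and BC3. BC5 also had the lowest summed level of 6 adipocyte markers, 64.7 against 70.7 to 73.3 on the other arrays, through ADIPOQ, LEP and LPL, while FABP4 and LIPE were highest there. The gap between 3' and 5' control probe sets was 1.90, 2.49 and 1.81 for GAPDH in BC4, BC5 and BC6 and 1.52 and 1.82 in BC2 and BC3, and for ACTB it was 4.03, 4.80 and 3.85 in BC4, BC5 and BC6 and 4.06 and 4.77 in BC2 and BC3. Of 7 endothelial markers, 6 were highest on BC5, where their sum was 65.9 against 58.5 to 62.8 on the other arrays, and 5 were lowest on BC2. All 3 smooth muscle markers were lowest on BC2 (sum of 22.7 against 26.1 to 30.3), and the 5 macrophage markers above the floor were highest on BC6 (38.1 against 28.9 to 32.5). The part of these features in the results below was not tested. In bulk tissue, fewer cells of a type and less RNA per cell cannot be told apart.

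**Figure D1:**
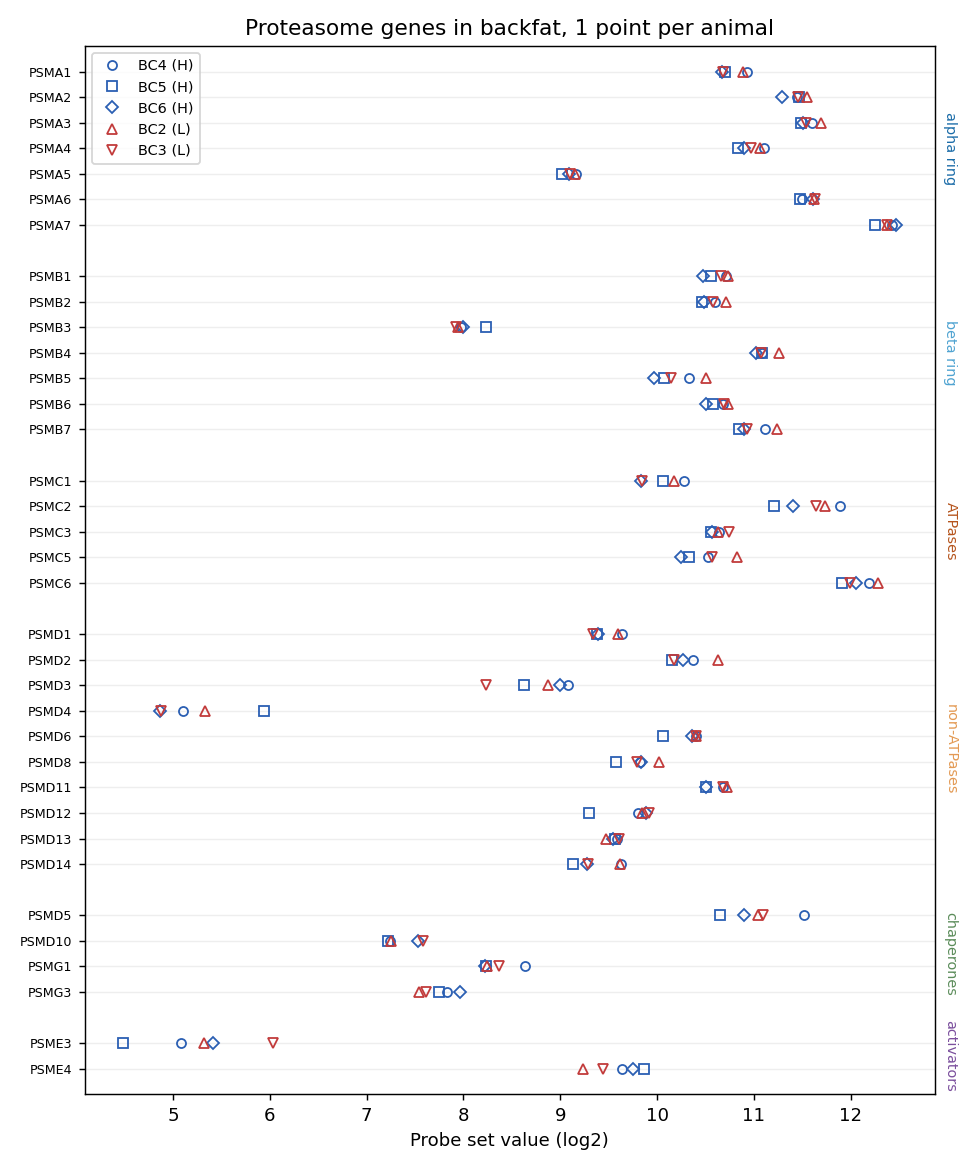
Each row is 1 proteasome gene and each point is 1 animal, with the log2 value of its probe set on the horizontal axis, blue for the H group (BC4, BC5, BC6) and red for the L group (BC2, BC3). Most genes lie between 9 and 13, and the points of an alpha ring gene lie close together, while PSMD4 and PSME3 are dim and spread widely.

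Within each class, values covered a wide range of probe set brightness, and since probe sets differ in how well they bind, no order of abundance was read from it. The core genes had means over the 5 arrays of 8.02 (PSMB3) to 12.4 (PSMA7), with a median of 10.9. Regulatory particle genes had means of 5.22 (PSMD4) to 12.1 (PSMC6), with a median of 10.04. The plot of values by animal shows that 28 of the 35 genes had a mean between 9 and 13.

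No proteasome gene passed the combined threshold (p-value of 0.01, adjusted p of 0.1 and fold difference of 1.2) between H and L in limma, and the background was 0% of 23999 probe sets. At an unadjusted p-value below 0.05, PSME4 and PSMG3 were both higher in H, and 0 genes were lower. The background at that p-value was 3.18% of probe sets, 1.6% higher and 1.58% lower in H. In limma the adjusted p of every one of the 35 genes was 1. The mean was lower in H for 25 of 35 genes, against 46.8% of the 12730 probe sets with 5 distinct values. Among the 1745 genes of all kinds with a mean of 9 to 13, 946 were lower in H. Of the 28 proteasome genes in that range, 23 were lower. Of the core genes, 12 of 14 had a lower mean in H, and of the regulatory particle genes 10 of 15. These genes were measured on the same 5 animals, so the counts are no independent evidence of a direction.

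The groups did not overlap for 6 genes, against 20.9% of probe sets. PSMA6, PSMB6 and PSMC5 were lower in each H animal than in each L animal (background 9.38%), and PSMB3, PSMG3 and PSME4 were higher (background 11.5%). Differences below are the H mean less the L mean, in log2 units and with their standard error. The median difference was -0.10 over the core, with a range of -0.20 to 0.13, and -0.10 over the regulatory particle, with a range of -0.33 to 0.34. Over the 1745 genes of all kinds with a mean between 9 and 13 it was -0.03, and over the 28 proteasome genes of that range it was -0.10. Without BC2 (L), the animal with the highest value for 13 of the 35 genes, the core median was -0.01 and that of the regulatory particle -0.04.

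**Figure D2:**
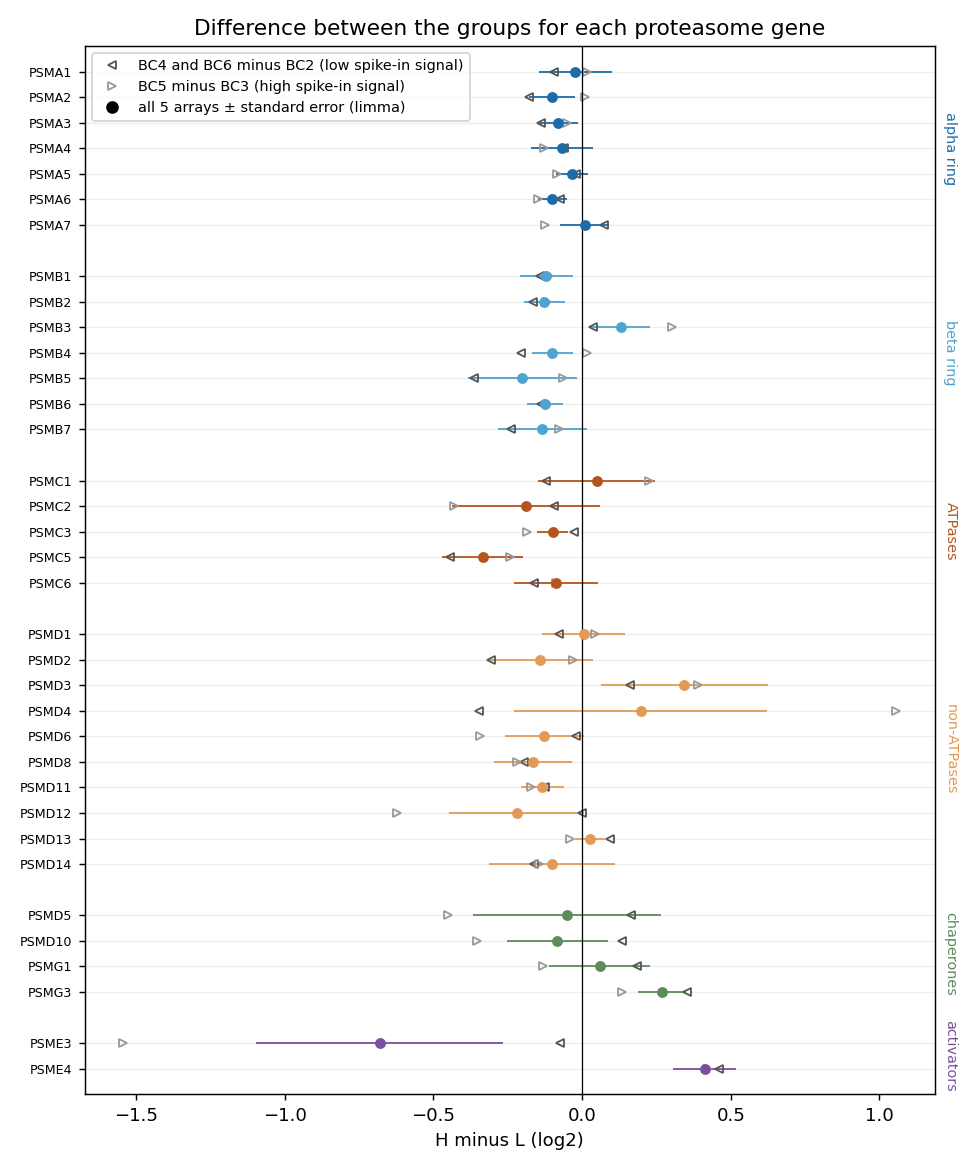
The horizontal axis gives the difference of H from L (log2), as a filled point with its standard error for all 5 arrays and as open triangles for the arrays of low (BC4 and BC6 minus BC2) and high (BC5 minus BC3) bacterial control signal. Core genes lie between -0.20 and 0.13, and PSME3 and PSMD4 have triangles far apart. PSME3 is at -0.07 for low and -1.54 for high signal, and PSMD4 at -0.35 for low and 1.06 for high signal.

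Among the catalytic subunits, PSMB5, which carries the chymotrypsin-like site, had values of 10.33, 10.08 and 9.97 in BC4, BC5 and BC6 and of 10.51 and 10.14 in BC2 and BC3. BC2 was the brightest array and BC6 the dimmest, the groups overlapped, and the difference was -0.20 ± 0.18, or -0.015 without BC2 and -0.386 without BC3. PSMB6, with the caspase-like site, was at 10.68, 10.57 and 10.51 in the H animals and at 10.73 and 10.69 in the L animals. All 3 H values lay below both L values, with BC4 only just below BC3, and the difference was -0.12 ± 0.06. PSMB7, with the trypsin-like site, was at 11.11, 10.85 and 10.89 in H and at 11.24 and 10.93 in L. Its groups overlapped through BC4, with a difference of -0.13 ± 0.15 that took the opposite sign, 0.02, without BC2.

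The other beta subunits build the middle rings without a proteolytic site of their own. PSMB2 had 10.60, 10.46 and 10.49 in H and 10.71 and 10.58 in L, and BC4 lay between the L animals (difference -0.13 ± 0.07, or -0.06 without BC2). PSMB4 had 11.08, 11.09 and 11.02 in H and 11.25 and 11.07 in L, so that BC2 alone stood above the rest (-0.10 ± 0.07, or -0.0076 without BC2). PSMB1 had a difference of -0.12. PSMB3, the dimmest of the class, went the other way, with 7.98, 8.23 and 7.99 in H against 7.95 and 7.93 in L. Every H animal was higher, but 2 of them by less than 0.1 and BC5 by more (0.13 ± 0.10).

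The alpha subunits, which form the outer rings and the gate, differed little between animals. PSMA6 was at 11.49, 11.48 and 11.61 in H and at 11.62 and 11.63 in L, with no overlap and a difference of -0.10 ± 0.05. PSMA2 was at 11.45, 11.47 and 11.29 in H and at 11.55 and 11.46 in L. BC5 lay between the L animals, and the difference was -0.10 ± 0.08, or -0.04 without BC6 and -0.05 without BC2. PSMA3 had 11.60, 11.48 and 11.51 in H and 11.69 and 11.53 in L, with BC4 between the L animals (-0.08 ± 0.07, or -0.0042 without BC2). PSMA5 had 9.17, 9.02 and 9.09 in H and 9.15 and 9.10 in L, and the groups overlapped (-0.03 ± 0.05). PSMA1, PSMA4 and PSMA7 had differences of -0.02, -0.07 and 0.01.

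Of the ATPases, PSMC5 had the lowest p-value. Its values were 10.52, 10.33 and 10.24 in BC4, BC5 and BC6 and 10.83 and 10.57 in BC2 and BC3. Each H animal was below each L animal, with a difference of -0.33 ± 0.14, a fold difference of 1.26, an unadjusted p-value of 0.082 and an adjusted p of 1 in limma. Without BC2 it was -0.21. PSMC3 was at 10.64, 10.56 and 10.57 in H and at 10.63 and 10.75 in L, with BC4 just above BC2 (-0.10 ± 0.05, or -0.04 without BC3). PSMC2 had 11.89, 11.21 and 11.40 in H and 11.74 and 11.64 in L. The animal with the highest value, BC4, and that with the lowest, BC5, were both H animals. Its difference was -0.19 ± 0.25, or -0.04 without BC5 and -0.38 without BC4, and its other probe sets gave -0.32 and -0.44. PSMC1 and PSMC6 had differences of 0.05 and -0.09.

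The non-ATPase subunits include the lid, whose PSMD14 cuts off the ubiquitin chain, and the scaffolds PSMD1 and PSMD2. The lid subunit PSMD11 was at 10.68, 10.51 and 10.51 in H and at 10.72 and 10.68 in L, where BC4 lay just above BC3 (-0.13 ± 0.07). PSMD11 had other probe sets with differences of -0.52 and -0.05, of which the first had no overlap between the groups. PSMD8, also of the lid, had 9.82, 9.57 and 9.83 in H and 10.02 and 9.79 in L. BC5 was lowest and BC2 highest, and the difference was -0.17 ± 0.13, or -0.05 without BC2, -0.08 without BC5 and -0.28 without BC3. The PSMD8 groups overlapped, and the unadjusted p-value was 0.286 in limma. With the class of bacterial control signal as a block, a model chosen after seeing the data, the PSMD8 difference was -0.21. That fit gave an unadjusted p-value of 0.000709 and an adjusted p of 0.353 in limma.

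Against this direction, PSMD3, a lid scaffold, was at 9.08, 8.63 and 8.99 in H and at 8.88 and 8.24 in L. BC3 was lowest by a wide margin, the groups overlapped, and the difference was 0.34 ± 0.28, or 0.02 without BC3 and 0.66 without BC2. The ubiquitin receptor PSMD4, the dimmest of the class, was at 5.10, 5.94 and 4.87 in H and at 5.33 and 4.88 in L. BC5 alone was high, and the difference of 0.20 ± 0.43 became -0.12 without BC5. PSMD13 varied least of the 35 genes, with 9.58, 9.57 and 9.54 in H and 9.47 and 9.61 in L (0.03 ± 0.05, SD of 0.053 over the 5 arrays). PSMD1 had 9.64, 9.38 and 9.39 in H and 9.59 and 9.34 in L, a difference of 0.01 ± 0.14, and a second probe set gave -0.03. The other members, PSMD2, PSMD6, PSMD12 and PSMD14, had differences of -0.14, -0.13, -0.22 and -0.10.

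The activators dock on the core in place of the regulatory particle. PSME4, a nuclear activator linked to the degradation of acetylated histones, was at 9.64, 9.86 and 9.75 in BC4, BC5 and BC6 and at 9.23 and 9.44 in BC2 and BC3. All H animals were above both L animals, with a difference of 0.41 ± 0.11, a fold difference of 1.33, an unadjusted p-value of 0.025 and an adjusted p of 1 in limma. Within the arrays of low bacterial control signal the PSME4 difference was 0.46, and within those of high signal (BC5 less BC3 alone) it was 0.42. With no overlap between the groups, the sign within each class was fixed and adds nothing to the direction. PSME4 is also on the list of genes that the study selected by RNA-Seq in these animals, so the array value is not independent evidence of its direction. PSME3, the nuclear activator of ubiquitin-independent degradation, was dim, at 5.09, 4.49 and 5.42 in H and at 5.33 and 6.03 in L. Its groups overlapped, since BC6 was above BC2, and the difference was -0.68 ± 0.41, or -0.33 without BC3, -0.43 without BC5 and -1.03 without BC2.

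The assembly chaperones help to build the particles and are not part of the finished enzyme. PSMG3, a chaperone of alpha ring assembly, was at 7.84, 7.75 and 7.96 in H and at 7.55 and 7.62 in L. Its groups did not overlap, and the difference was 0.27 ± 0.08, a fold difference of 1.2 with an unadjusted p-value of 0.0367 and an adjusted p of 1 in limma. PSMG1, which acts at the same step, was at 8.63, 8.23 and 8.23 in H and at 8.24 and 8.36 in L, where BC4 alone was high (0.06 ± 0.17). PSMD10, a chaperone of the ATPase ring also named gankyrin, was at 7.24, 7.22 and 7.53 in H and at 7.25 and 7.58 in L, with one animal of each group high (-0.08 ± 0.17). PSMD5, another chaperone of that ring, had a difference of -0.05, with BC4 highest at 11.5 and BC5 lowest at 10.6.

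To compare the particles by array, each gene was set to its own mean over the 5 arrays. Medians of the core were 0.04, -0.08 and -0.08 in BC4, BC5 and BC6 and 0.11 and -0.01 in BC2 and BC3, and those of the regulatory particle 0.06, -0.17 and -0.06 in BC4, BC5 and BC6 and 0.12 and -0.02 in BC2 and BC3. Both particles were thus above their mean in BC2 and BC4 and below it in BC5 and BC6, and the animals of a group did not lie together. The core minus the regulatory particle, averaged per group, differed between H and L by 0.02, less than the SD of 0.051 between replicates.

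**Figure D3:**
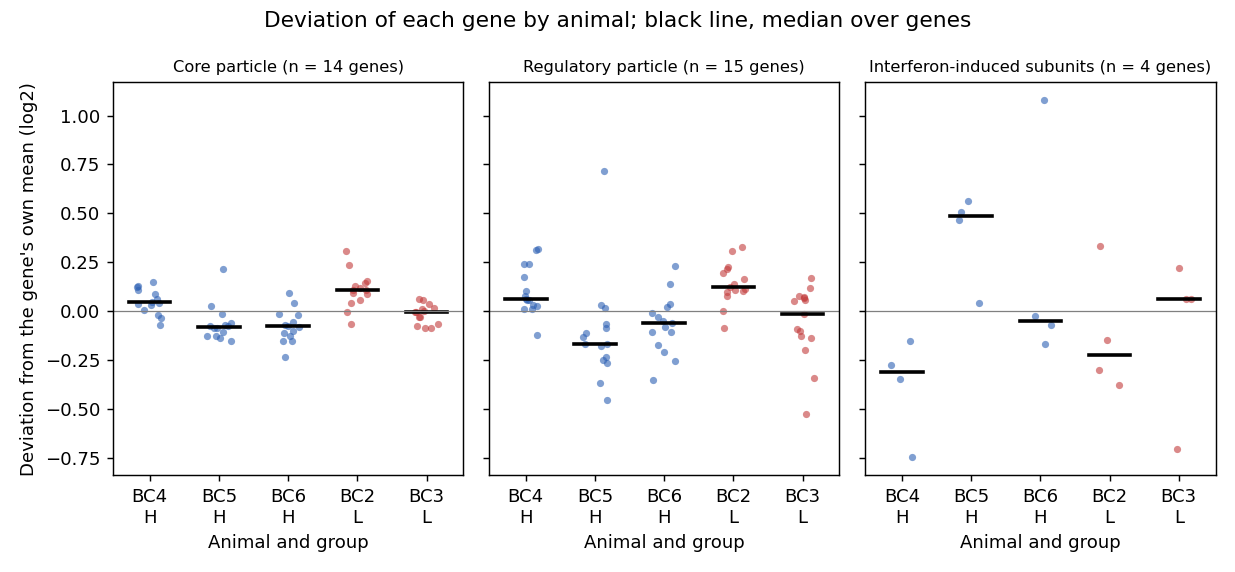
Each panel is a gene set, with the 5 arrays on the horizontal axis (H on the left, L on the right) and the deviation of each gene from its own mean (log2) on the vertical axis. The core and the regulatory particle share their order of arrays, with medians of -0.08 and -0.17 on BC5 and of 0.11 and 0.12 on BC2. The median of the interferon-induced subunits is highest on BC5, at 0.49, although PSMB8 among them is highest on BC6.

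BC5 had the lowest value for 19 of the 35 genes (background 26.3% of probe sets), BC6 for 10 (19.4%), BC3 for 3 (14.3%), BC2 for 3 (25.9%) and BC4 for 0 (14.1%). The highest value fell on BC2 for 13 genes (background 21.4%), on BC4 for 11 (16.2%), on BC3 for 6 (14.8%), on BC5 for 3 (27.5%) and on BC6 for 2 (20.1%). Among the 1745 genes with a mean of 9 to 13, BC5 was lowest for 584 and BC2 highest for 427. Among the 28 proteasome genes of that range the counts were 17 and 13. Within the arrays of low bacterial control signal the median difference was -0.14 for the core and -0.12 for the regulatory particle, and within those of high signal it was -0.08 and -0.15. Of the 35 genes, 20 were lower in H in both classes of array (background 26.2%) and 4 were higher in both (31.1%). In the range of means of 9 to 13, 579 of 1745 genes were lower in both and 449 higher in both. Of the 28 proteasome genes of that range, 19 were lower in both and 1 was higher in both. With the class as a block, limma gave 2 genes, PSME4 and PSMD8, an unadjusted p-value below 0.05 (background 6.11%), and none passed the combined threshold (0.00417%).

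Over the 5 arrays, the median SD of a gene was 0.096 in the core and 0.193 in the regulatory particle, given as a description with no test. With the level limited to means of 9 to 13, where SDs of both can be read against other genes, the medians were 0.094 for 13 core genes, 0.159 for 13 regulatory particle genes and 0.233 for the 1745 genes of all kinds. All 13 core genes and 11 of 13 regulatory particle genes were below the median of all genes, and 11 and 6 were below its lower quartile of 0.153. On the low-signal arrays alone (BC4, BC6 and BC2), over all genes of each particle, the medians were 0.112 for the core and 0.113 for the regulatory particle, so that the gap between the particles was not seen there. Without BC5 they were 0.094 and 0.150. Limited to means of 9 to 13, the medians without BC5 were 0.097 for the core and 0.130 for the regulatory particle, against 0.198 for genes of all kinds. The widest spreads were those of PSME3 (0.559), PSMD4 (0.441) and PSMD3 (0.339), and the narrowest those of PSMD13 (0.053), PSMA5 (0.058) and PSMA6 (0.073).

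**Figure D4:**
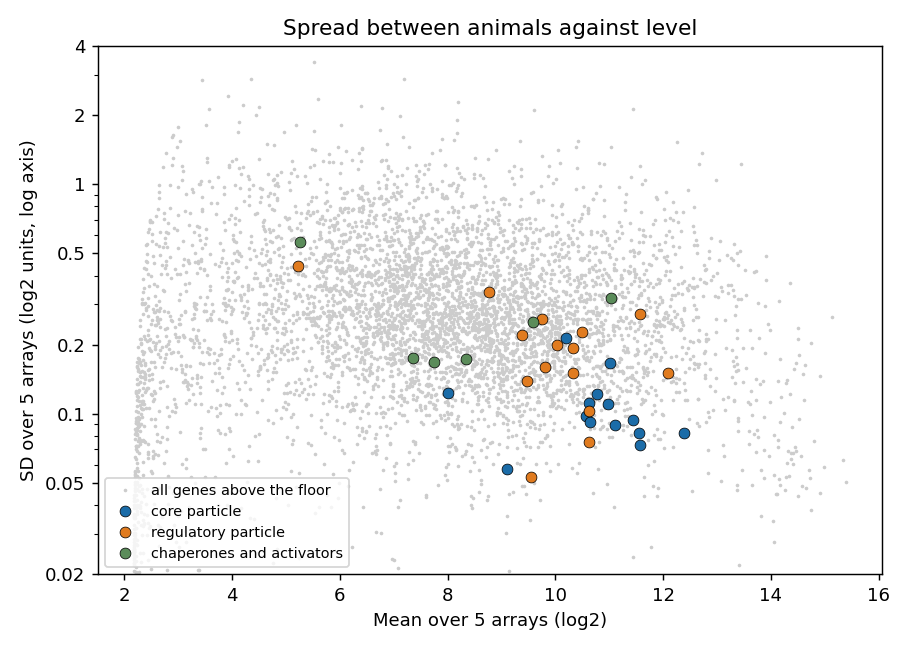
Each point is a gene, with its mean log2 value over the 5 arrays on the horizontal axis and its SD over them on a logarithmic vertical axis, grey for all genes above the floor and coloured for the proteasome classes; 295 genes with an SD below 0.02 are not drawn. Core genes lie low among genes of like brightness, with a median SD of 0.094 against 0.233 for all genes with a mean of 9 to 13.

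The interferon-induced subunits replace constitutive beta subunits or form a cap on the core, and are known for their role in antigen presentation. Of the 5 listed, 4 were measured, and PSMB9 was not analysed here. PSMB8, which replaces PSMB5, was at 4.83, 5.62 and 6.66 in H and at 5.91 and 4.88 in L, with a wide overlap (0.31 ± 0.74). PSME1, a subunit of the cap, was at 10.04, 10.75 and 10.02 in H and at 9.89 and 10.25 in L, where BC5 alone was high (0.20 ± 0.32). PSMB10, which replaces PSMB7, had 7.29, 8.03 and 7.54 in H and 7.19 and 7.78 in L. PSME2, the partner of PSME1, had 8.58, 9.43 and 8.85 in H and 8.77 and 8.99 in L. PSMB10, PSME1 and PSME2 were highest on BC5 (background 27.5% of probe sets), the array that was lowest for 19 of the 35 constitutive genes. PSMB8 was highest on BC6.

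Genes around the proteasome did not pass the combined threshold either, with an adjusted p of 1 for each in limma. Of the other components and regulators, 7 of 13 were measured, 4 with a higher and 3 with a lower mean in H. PAAF1, which binds the ATPases and restrains the assembly of the whole particle, was at 6.37, 6.10 and 6.57 in BC4, BC5 and BC6 and at 7.03 and 7.55 in BC2 and BC3. Its groups did not overlap (-0.94 ± 0.25, unadjusted p-value of 0.0261 and adjusted p of 1 in limma). PAAF1 had 3 probe sets, of which the brightest is given. Over all alternatives, which included other choices of probe set, its difference kept its sign and ran from -1.45 to -0.48. SEM1, a small lid subunit, was at 11.55, 11.29 and 11.73 in H and at 11.74 and 11.89 in L, with no overlap but BC6 only just below BC2 (-0.29 ± 0.16).

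Of the factors that control transcription of proteasome genes, 2 of 12 were measured, both subunits of the CCAAT-binding factor NF-Y. NFYB was at 6.56, 6.68 and 6.69 in H and at 6.28 and 6.36 in L, without overlap (0.32 ± 0.06, unadjusted p-value of 0.00971 and adjusted p of 1 in limma). NFYC had a difference of 0.24 ± 0.18. Ubiquitin itself comes from UBB and RPS27A among the measured genes, 2 of 4 listed, with differences of 0.06 ± 0.15 and 0.05 ± 0.07.

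Of the enzymes that activate and carry ubiquitin, 14 of 21 were measured, 4 higher and 10 lower in H. Of the 5817 genes of all kinds above the floor, 2908 were lower. The 10 included UBE2V1, at -0.00012, and UBE2C, which was at the floor on BC5 and BC3. CDC34, the carrier that works with cullin ligases, was at 7.28, 6.90 and 6.69 in H and at 7.49 and 7.42 in L, with no overlap (-0.50 ± 0.21). UBE2N, which builds chains used in signalling, was also lower in each H animal than in each L animal (-0.18 ± 0.09), and UBE2G2 was higher (0.10 ± 0.06). Of the unfoldase p97 and the shuttle factors that hand substrates over, 7 of 13 were measured and 6 were above the floor, 4 higher and 2 lower in H, with BAG6 at 0.12 ± 0.22 and FAF2 at 0.04 ± 0.10. The muscle ligase FBXO32 had a difference of 0.52 ± 0.71, and its values ran from 6.91 in BC2 to 8.74 in BC6.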

How the data were processed

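A single Affymetrix porcine array was run per animal, and its deposited values are log2. The authors corrected the background, normalized across arrays and condensed the probes of each set; their methods name GCRMA and the submitters' processing notes RMA, so the method behind the values is not settled. The tissue was taken as backfat, from its label and the paper, although an extraction note has liver. All animals are single samples of their group, and the number of arrays limits the precision.

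From 24123 probe sets, 124 controls were left out and 23999 were fitted for the contrast of H with L in limma 3.58.1 (R 4.3.3), without covariates and with Benjamini-Hochberg adjustment over all of them. A probe set was called where the p-value was at most 0.01, the adjusted p at most 0.1 and the fold at least 1.2. Gene symbols come from a table of platform annotation, which gave 1 symbol for 10069 probe sets. No coordinates are printed because the files name no genome build. The fit was tested on simulated data with planted differences larger than those of the proteasome genes. That checks the code and says nothing about the results here.

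The members and lists were chosen with earlier results of these data known. Genes with values per animal are the catalytic subunits, up to 3 per class with the smallest p, the 3 with the largest and smallest SD, genes whose probe sets disagree in sign, PSME4, and up to 2 per other list; PSMB3, PSMB10, PSME2 and UBE2G2 were named after their values were seen. Alternatives were other scalings, filters on dim probe sets, other choices of probe set, variance models, array weights, thresholds and leaving out each animal. The class of bacterial control signal, as a block and within classes, and the range of means of 9 to 13 used to read spreads were chosen after seeing the data.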

Additional observations from a re-analysis of the deposited data

Results flagged for a closer look

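The bacterial control RNA that is added to each sample was 2.602 higher on the log2 scale on BC5 (H) and BC3 (L) than on BC4, BC6 (H) and BC2 (L), over 24 control probe sets that enter no comparison. Its part in the values of the proteasome genes was not tested, and values within each class of array stand beside the results.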

How the results depend on the processing

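No proteasome gene was called under any of the 15 other settings of the fit or at an adjusted p of 0.05, and 2 (PSME4 and PSMG3) were at an unadjusted p of 0.05. Of all 23999 probe sets, 160 were called without BC2, 286 without BC3, 305 within the arrays of low bacterial control signal and 1 with the block. At these shares fewer than 1 of 35 genes would be called, so a count of 0 says nothing particular about them, and where 1 L animal was left it was assumed to vary like the H animals. Leaving out each animal in turn, the core median difference was -0.145 to -0.013 (nearest to 0 without BC2), that of the regulatory particle -0.190 to -0.037 and the core minus the regulatory particle -0.026 to 0.049, and the other scalings, probe set choices and array classes moved these by less than the spread between replicates. Of 36 named genes, 20 kept their sign under every alternative.

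The sign turned for the others as follows, and the cause was not tested. Leaving out each animal gave BAG6 -0.045 to 0.28, FAF2 -0.060 to 0.15, FBXO32 -0.361 to 1.41, PSMA5 -0.071 to 0.0028, PSMB7 -0.29 to 0.023, PSMB8 -0.207 to 0.828, PSMD1 -0.122 to 0.132, PSMD10 -0.245 to 0.080, PSMD13 -0.043 to 0.095, PSMD4 -0.12 to 0.423, PSME1 -0.041 to 0.381, PSMG1 -0.076 to 0.128, RPS27A -0.041 to 0.144 and UBB -0.071 to 0.191. Within the arrays of high bacterial control signal, FBXO32 was -0.888, PSMA2 0.011, PSMB4 0.015, PSMD13 -0.040 and PSMG1 -0.132. Within those of low signal, PSMB8 was -0.166, PSMD1 -0.078, PSMD10 0.134 and PSMD4 -0.346. Median centring gave -0.037 for PSMD1 and -0.016 for PSMD13, and the block of array class gave -0.026 for PSMD1. The mean of all probe sets gave -0.121 for FAF2 and -0.011 for PSMD1, and the probe set with the largest SD gave -0.365 for FAF2 and -0.027 for PSMD1.

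No analysis paired by animal was possible because no animal number occurs in both H and L. The paper states that pedigree served to keep sibs out of the same group. Whether animals of H and L were sibs of each other is not given. The values are array signal, so no read depth applies. With 3 animals against 2 the precision was limited, and a p that misses the threshold does not show that the groups are alike.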
